A study of Mus musculus with 249 samples.

Results

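Chromosome 9 was taken as every 40 kb window of mouse chromosome 9 from base 3000001 to the end of the chromosome, in the mouse assembly mm9. These were 3027 of the 68162 windows listed, and they were set beside 57364 windows of the other autosomes. The chromosome was selected on the mean share of its windows that were positive, which was above that of most autosomes in the same libraries, so that excess is given here as a description with no test. The data are libraries of multiplex genome architecture mapping (GAM) from the embryonic stem cell line 46C, which carries a Sox1-GFP knock-in and was derived from E14tg2a. A single line was used, and every library came from it. In this assay frozen cells are sliced, a laser isolates profiles of nuclei, and whole-genome amplification precedes sequencing of each tube. The titles give 4 profiles per tube, each from another cell, and not every profile holds part of a nucleus. A window was either positive or not in a library, and the read depth behind each call was unknown.

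The libraries came from 11 experiments and all had passed the authors' quality control. Reagent volumes were varied as protocol A in 10 libraries, protocol B in 11 and protocol C in 10. Proteinase K volumes were titled 1 ul (5 libraries) and 2 ul (6), and the PCR experiment held 25 (3), 23 (5) and 20 (4) cycles. Freezing was tested after the lysis incubation (10 frozen, 11 unfrozen) and in another experiment as early (12) against late (11). Cresyl violet, a dye that makes cell profiles visible, was tested with 16 stained and 10 unstained libraries, and the kit experiment held 12 small-kit and 11 large-kit libraries. The propidium iodide (20), eosin (18) and SYBR Gold (10) tests are titled unstained, and the full collection held 54 cresyl violet libraries. For SYBR Gold, however, the protocols include a staining step, and the volumes in the proteinase K protocols differ from the titles, which were used here. Nothing says that libraries came from separate cultures, so p-values measure only the spread between libraries, which may be technical, and experiment and plate cannot be told apart.

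A thin slice catches a chromosome in pieces, because each chromosome fills a territory of its own in the nucleus. A locus is thus present in only some slices, and loci that lie close in space tend to fall into the same slices. Mouse chromosome 9 is acrocentric, with the centromere beside its first base and the telomere at the other end. It carries genes of many kinds, among them olfactory receptor and matrix metalloproteinase clusters, the apolipoprotein cluster, and genes used in stem cells and early embryos. In stem cells gene-rich and GC-rich chromatin tends to lie in the nuclear interior, and gene-poor chromatin at the nuclear edge.

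The limit at base 3000001 is the edge of the assembled sequence. All 75 windows before it consist of undetermined bases, and 0 libraries were positive in any of them. The first window inside, chr9:3000001-3040000, was positive in 247 libraries, 99.2% of all, and the window after it in 42 (16.9%). The first window holds 12 predicted protein-coding genes, among them Gm10722 and Gm10715. Its sequence in mm9 is a tandem repeat. Among shifts of 20 to 1000 bases it matched itself best at 234 bases, where 69.4% of its bases were identical, and 84.8% of the window lay in stretches of 100 bases that matched the next unit at 80% or more. Mouse major satellite DNA, which lies around centromeres, is a tandem array with units of the same length. A pair of adjacent units from this window (plus strand of mm9, chr9:3027538-3027771 and chr9:3027772-3028005) is shown because the repeat sets this window apart from the rest of the chromosome. Capitals mark the 5 bases at which the units differ, so that 97.9% of bases are identical. The pair was chosen for the fewest differences among adjacent pairs with at least 5, so it is more alike than the 69.4% over the whole window.
First unit: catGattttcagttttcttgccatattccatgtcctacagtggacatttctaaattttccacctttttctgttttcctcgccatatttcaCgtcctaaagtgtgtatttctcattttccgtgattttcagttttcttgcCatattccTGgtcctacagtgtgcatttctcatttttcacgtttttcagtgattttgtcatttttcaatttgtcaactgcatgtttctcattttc
Second unit: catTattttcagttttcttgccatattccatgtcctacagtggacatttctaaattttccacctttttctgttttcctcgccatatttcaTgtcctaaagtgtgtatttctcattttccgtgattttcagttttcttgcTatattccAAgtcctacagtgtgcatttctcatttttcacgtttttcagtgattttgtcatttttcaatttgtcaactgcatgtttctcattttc
In 3024 later windows of the chromosome the identity at this shift was 26.04% at the median and 30.3% at most. The first windows of the 18 other autosomes, at the same base, showed no such repeat, with identities from 22.4% to 27.8%. Without it, these windows were positive in 0 to 218 libraries, with 3 of them in over 100 and 3 in 5 or fewer, and chromosome 11 was highest. Of all words of 31 bases in the chromosome 9 window, 8.48% occurred once in the genome and 56.0% at least 10 times.

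Only 4 windows of chromosome 9 were positive in over 100 libraries, and they lay singly among windows of ordinary detection. Single other autosomes held from 0 to 26 such windows. The second of them, chr9:35080001-35120000, was positive in 245 libraries (98.4%), while its neighbours were positive in 62 and 52. It holds Rpusd4, which encodes a mitochondrial pseudouridine synthase, and Gm5614. In contrast to the first window, 95.4% of its words of 31 bases were found once in the genome. The window chr9:24320001-24360000 is free of protein-coding genes, and 128 libraries held it, against 54 and 53 for its neighbours. Of its words 57.5% were unique, and a stretch of 2857 bases consisted only of words found at least 10 times. The window chr9:123360001-123400000, with Lars2 (mitochondrial leucyl-tRNA synthetase) and Limd1, was positive in 116 libraries, against 47 and 63 in its neighbours, and 95.0% of its words were unique. The fifth by rank, chr9:13400001-13440000 in Maml2, a coactivator of Notch signalling, was positive in 96. The range over experiments was wide for the windows at 24.32 and 123.36 Mb, both at 18.2% of libraries in the proteinase K experiment, the first at 65.2% in the early freezing and the other at 69.2% in the cresyl violet experiment. The share of unique words was thus low in the first window, intermediate in the window at 24.32 Mb and high in the other 3. The part of repeats in these calls was not tested.

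At the other end, 1 window was never positive, chr9:80280001-80320000 in Impg1, a gene of the retinal matrix. It consists wholly of undetermined bases. This was 0.0330% of the windows of chromosome 9, while 1.31% of the windows of the other autosomes (751 windows) were never positive. Single autosomes ran from 0% on chromosome 15 to 7.57% on chromosome 7, which alone had 283 such windows, and chromosome 9 was 18 of 19 in this order, close to chromosome 11 with 0.0336%. No run of 5 or more such windows was found. Under 25 libraries were positive in 6 windows (0.198%, against 2.36% of other autosomal windows), and at least 40 in 94.3% (against 86.3%). The rarest positive windows were chr9:89000001-89040000 and chr9:108760001-108800000, with 18 libraries each. The first has no protein-coding gene, and 11.1% of its words were unique. The second, which holds the anion exchanger gene Slc26a6, is 88.8% undetermined bases. Next came a pair of adjacent windows without protein-coding genes, chr9:81160001-81200000 with 19 libraries and chr9:81120001-81160000 with 21, and chr9:94200001-94240000 with 24, of which 56.5% is undetermined.

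The median window of chromosome 9 was positive in 53 libraries, with quartiles of 47 and 60, against a median of 49 on the other autosomes. Averaged over 5 Mb, detection was highest at 70 to 75 Mb, with 63.3 libraries ± 11.9 (SD over 125 windows), and lowest at 80 to 85 Mb, with 44.3 ± 9.53. All 4 intervals from 55 to 75 Mb had means of at least 58.9, and the 3 from 80 to 95 Mb had means of 44.3, 47.7 and 46.1. Both stretches were picked after the profile was seen, so their contrast is a description. The stretch from 55 to 75 Mb held 1.01 protein-coding genes per window and 44.4% GC, and that from 80 to 95 Mb 0.419 genes and 39.8% GC. Per library, 24.7% ± 17.97 (SD over libraries) of the first stretch and 18.5% ± 15.1 of the second were positive, and 160 libraries were higher in the first. Its mean was the higher one in each of the 11 experiments, by 1.02 percentage points ± 3.03 (SE, n = 11) in the proteinase K experiment up to 13.2 ± 4.76 (n = 10) in the SYBR Gold experiment. The smallest of these differences were well within their errors.

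**Figure D1:**
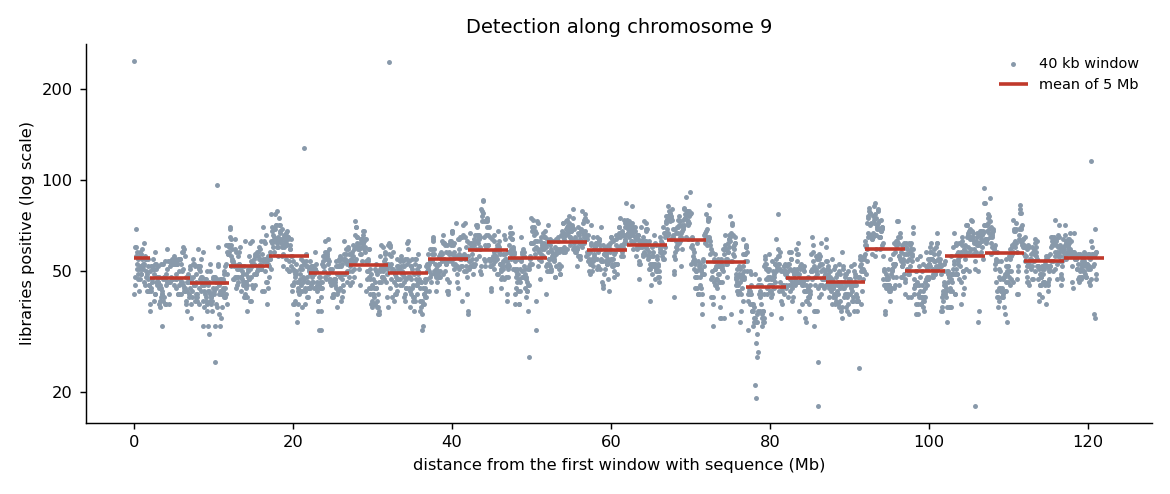
Number of libraries positive (log scale) in each 40 kb window of chromosome 9, against the distance from the first window with sequence, with means of 5 Mb in red. The window never positive cannot be drawn on a log scale. The 4 windows above 100 libraries stand alone, and the means fall from 63.3 to 44.3 libraries within 15 Mb.

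Detection went with base composition and gene content. Over 3020 windows with enough determined bases, Pearson's r of libraries per window was 0.31 with GC content, 0.22 with the share of the window inside genes and 0.34 with the number of protein-coding genes. Without the 4 windows above 100 libraries these were 0.36, 0.26 and 0.31. Over 122 bins of 1 Mb, r with GC was 0.59 and Spearman's rho 0.65. Neighbouring windows share slices and base composition and are no replicates, so no p is given. The 1 Mb profile of the full collection had an r of 0.55 with that of the other 10 experiments, and r with GC was 0.42 in the first set and 0.58 in the second.

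Genes were then followed by role, each through the windows that it overlaps. For all 1265 protein-coding genes of chromosome 9 the median was 57 libraries, and 840 of them lay above 53, the median window. For 20153 genes of the other autosomes the median was 54.3. Genes of stem cells and early embryos lay high. Of 12 listed, 11 were found, their median was 66, and 10 were above 53. Trim71, an RNA-binding protein of stem cell growth, was positive in 80.5 libraries on average over 2 windows, the most in the list. The oocyte and stem cell genes Dppa5a and Ooep share a window with 71 libraries. Smarcc1 and Smarca4, subunits of the BAF chromatin remodeller, had 70.5 and 63.3, the maintenance DNA methyltransferase gene Dnmt1 had 66.5, and Tdgf1, a co-receptor for Nodal, had 66. The transcription factor genes Foxl2, Eomes and Zic1 had 61, 54 and 42, so that Zic1 alone lay below the median window, and Ctnnb1, which encodes beta-catenin, had 60.5.

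All 16 housekeeping and cell cycle genes lay above 53, with a median of 64. Ccnb2 (cyclin B2) had 74, the histone methyltransferase gene Setd2 73, the GTPase gene Rhoa 69.5 and the phosphatase gene Cdc25a 68. The checkpoint kinase genes Atm, Atr and Chek1 had 65, 62.8 and 54.5. Translation genes were spread over the same range, with 70 libraries for Rpl4, 65 for Rps25, 60 for Eef1a1 and 55 for Rplp1. Rplp1 and the kinesin gene Kif23 lie in the same window and so share their value.

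Long neural genes lay lower. The median of the 16 listed genes was 51.7, with 6 above 53. Cntn5, an adhesion molecule gene of 1244 kb, was positive in 45.3 libraries on average over its 32 windows, with single windows from 35 to 55. The adhesion genes Opcml and Ntm had 47.03 and 50.9 over 30 and 25 windows. The receptor gene Ephb1 had 44.8, the lowest mean, and Cadm1, a synaptic adhesion gene, had 67.2 over 9 windows, the highest. As a share of library and window pairs, 20.3% ± 0.935 (SE over libraries) of the windows of long neural genes were positive, against 26.1% ± 1.19 for housekeeping genes and 26.3% ± 1.31 for the stem cell list. These lists differ in GC content too, with means of 42.8%, 43.2% and 46.6% over their windows, and its part in these levels was not tested.

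Among gene clusters, olfactory receptor genes (Olfr), which serve the sense of smell and are silent in most cells, had a median of 47 libraries over 129 genes, and 31 of them lay above 53. They form a pair of clusters. The first, at 18.6 to 20.1 Mb with 35 genes, had a median of 54, and the second, at 37.5 to 40 Mb with 94 genes, had 46. Olfr954 and Olfr955, in the second, lay lowest with 32. The windows spanned by the clusters were positive in 21.6% ± 1.77 and 18.4% ± 1.47 of cases (SE over libraries). The 10 Mmp genes, for enzymes that degrade the extracellular matrix, lie side by side near 7 Mb and had a median of 46, from 39 for Mmp1b to 54 for Mmp27. Related copies within clusters can share sequence, and the share of unique words in these windows was not measured. The apolipoprotein genes Apoa1, Apoa4, Apoa5 and Apoc3 had a median of 57, equal to that of all genes. The serotonin receptor genes Htr3a and Htr3b had a median of 58, and the glutathione transferase genes (Gsta) had 62.5. The nicotinic receptor genes Chrna3, Chrna5 and Chrnb4 had 46, as low as the Mmp genes, and the scramblase genes (Plscr) had 51.5. The cytochrome genes Cyp1a1 and Cyp1a2 share a window with 68.

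**Figure D2:**
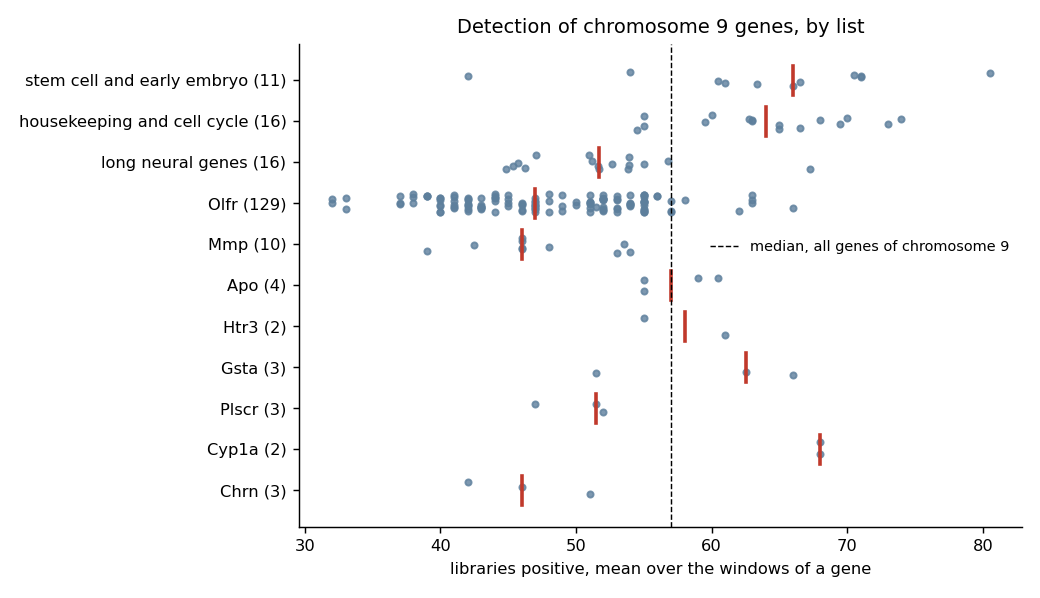
Libraries positive, averaged over the windows of each gene, for 11 gene lists of chromosome 9, with the number of genes in brackets. Points are genes, red bars are list medians, and the dashed line is the median of all protein-coding genes of the chromosome (57). The medians of the stem cell and housekeeping lists (66 and 64) lie to the right of it, and the Olfr and Mmp genes mostly to the left.

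The share of its windows that were positive averaged 21.6% ± 13.4 (SD over all libraries), with a median of 21.7%, a lowest value of 0.0991% and a highest of 61.7%. The other autosomes together averaged 19.7% ± 8.32 and ran from 3.26% to 49.4%. Among single autosomes the coefficient of variation of chromosome 9 over libraries was 0.620, rank 18 of 19, where the highest was 0.742 on chromosome 14. That coefficient divides by the mean share, which chose the chromosome, so its low rank is partly built in. The SD itself ran from 11.7 on chromosome 7 to 14.3 on chromosome 11, with 13.4 on chromosome 9. The mean difference was 1.88 points ± 0.651 (SE), with chromosome 9 higher in 139 libraries. This placed it second among the 19 autosomes, after chromosome 11 with 2.72 points ± 0.736. Single libraries were far from this mean, from -30.2 to 31.3 points. Chromosome 9 was more than double the other autosomes in 17 libraries and below 0.5 times their share in 43. On the log2 scale the mean of the ratio was -0.23 ± 0.0882 (SE, pseudocount of 1 window), of opposite sign, while its median was 0.14. Over windows positive in at least 40 libraries the difference was 1.12 ± 0.663 points. Against windows of matched GC content it was 1.23 ± 0.650, with windows never positive left out. Over windows positive in at least 1 library, without matching, it was 1.62 ± 0.651.

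In 11 libraries under 1% of chromosome 9 was positive, and in 26 over 40% was. On the other single autosomes these numbers ran from 6 to 17 and from 11 to 35, so chromosome 9 lay within both ranges. The lowest libraries were protocol A replicate 7 and small kit replicate 12, each with 3 positive windows of 3027 on chromosome 9 although 19.1% and 20.1% of the other autosomal windows were positive. All 11 libraries under 1% were positive in both the first window of the chromosome and the window at 35.08 Mb. Only 2 libraries lacked the first window and 4 the second, and 1 lacked both. The highest library was replicate 8 of the propidium iodide test, with 61.7% of chromosome 9 and 30.5% of the other autosomes positive. It also held the longest run of adjacent positive windows, 5120 kb from chr9:56640001-61760000. Over all libraries there were 53002 runs, of which 45.9% were single windows. Of all positive windows, 53.7% lay in runs of at least 200 kb, against 52.3% on the other autosomes. The longest stretch without a positive window had a median of 9720 kb per library, from 960 to 88840 kb.

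The share of chromosome 9 followed that of the other autosomes. Over all libraries Pearson's r was 0.64 and Spearman's rho 0.61 (permutation p = 1e-05 for each, the smallest the resamples can give), with a slope of 1.04. Without the 2 libraries farthest from the median r was 0.63. Within experiments r was positive in all 11, from 0.35 in the proteinase K experiment to 0.80 in the eosin experiment. Without the 2 libraries farthest from the median of each experiment, r moved from 0.63 to 0.36 in the cresyl violet and from 0.57 to 0.23 in the PCR experiment, so these rest largely on such libraries. Its permutation p adjusted over the 11 experiments passed the threshold of 0.05 in 8 of them and was 0.286 in the proteinase K, 0.067 in the PCR and 0.131 in the SYBR Gold experiment. With Spearman's rho it passed in 6, since the adjusted p was 0.0558 in both the reagent volume and the freezing after incubation experiment.

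Each of the 18 other autosomes correlated with chromosome 9 over libraries, with r from 0.31 for chromosome 1 to 0.51 for chromosome 3 (permutation, adjusted p = 1e-05 for each). Libraries differ in overall coverage, and every autosome had an r of 0.49 to 0.65 with all others together. These p-values and the one over all libraries above are thus not particular to chromosome 9. Once the remaining 17 autosomes were accounted for, the partial r passed the threshold for 2 chromosomes, chromosome 3 (0.20) and chromosome 17 (0.19, permutation, adjusted p = 0.0278 for both). With ranks the partial values were 0.17 and 0.19 and the adjusted p was 0.058 for both. The partial r was positive in 8 of 11 experiments for chromosome 3 and in 9 for chromosome 17, but also in 9 for chromosome 14 and in 8 for chromosomes 18 and 19, which did not pass. Leaving out 1 experiment ended the call for chromosome 3 in 6 of 11 cases and for chromosome 17 in another set of 6, with partial r from 0.15 to 0.24 for the first and from 0.15 to 0.22 for the second over all alternatives.

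Across the 11 experiments the sampled share of chromosome 9 differed, and experiments accounted for 8.06% of its variance (F = 2.09, permutation p = 0.0264). It was lowest in the proteinase K experiment, with 11.9% ± 10.8 (SD, n = 11), and highest in the PCR experiment, with 26.4% ± 14.3 (n = 12). The test no longer passed without the proteinase K experiment (p = 0.113) or without the cresyl violet experiment (p = 0.0608). The difference between chromosome 9 and the other autosomes did not pass between experiments in percentage points (F = 0.833, 3.38% of variance, permutation p = 0.6) or as a log2 ratio, where F was 1.85, 7.21% of variance lay between experiments and the permutation p was 0.055. Its means ranged from -3.45 points ± 3.05 (SE, n = 11) in the proteinase K experiment to 4.65 ± 3.44 (n = 12) in the PCR experiment, and libraries of all 11 experiments lay on both sides of 0.

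**Figure D3:**
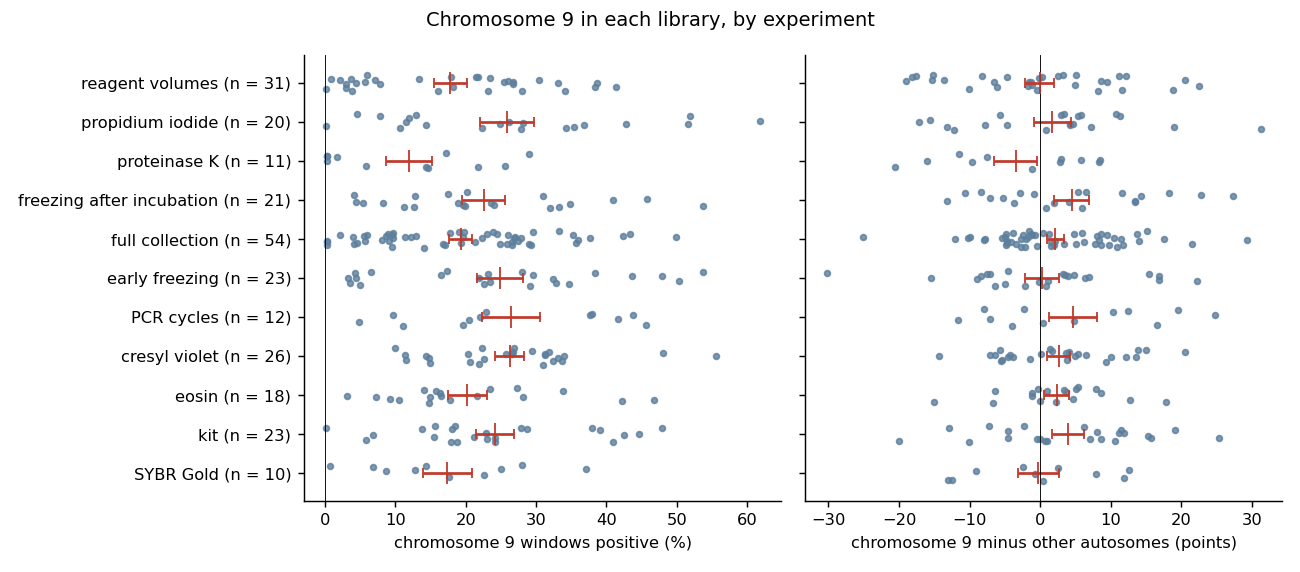
Share of chromosome 9 windows positive in each library (left) and the same minus the share for the other autosomes in percentage points (right), by experiment, with the mean and its standard error in red. Libraries of each experiment spread widely and lie on both sides of 0 on the right, where the means on the right lie between -3.45 and 4.65 points.

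Protocol arms were compared within experiments, with 11 pairs of arms and both measures, which makes 22 contrasts. After adjustment 0 passed the threshold of 0.05, while 4 did so unadjusted. Of the PCR series, tubes given 25 cycles had 43.7%, 45.7% and 41.6% of chromosome 9 positive, those with 20 cycles 22.9%, 11.1%, 4.82% and 9.68%, and those with 23 cycles between 19.6% and 37.9%. The libraries with 25 cycles thus lay above all others of the experiment. The difference between 20 and 25 cycles was -31.5 points (exact permutation p = 0.0286, the smallest that 4 against 3 libraries can give, adjusted p = 0.196), and that between 23 and 25 cycles -16.1 points (exact permutation p = 0.0357, adjusted p = 0.196). Set against the other autosomes, the libraries with 25 cycles had an excess of 24.8, 16.6 and 12.4 points and those with 20 cycles 4.77, 0.351, -8.01 and -11.6 points, again without overlap (difference -21.6 points, exact permutation p = 0.0286, adjusted p = 0.196). With 23 and 25 cycles the excess overlapped.

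In the kit experiment chromosome 9 was positive in 18.2% ± 6.93 of windows with the large kit (SD, n = 11, from 5.85% to 28.7%, median 18.5%) and in 29.6% ± 14.9 with the small kit (n = 12, from 0.0991% to 47.9%, median 32.9%). The difference was -11.4 points (permutation p = 0.0318, adjusted p = 0.196), and the ranges overlapped. The mean excess over the other autosomes differed by -2.32 points between the same arms (permutation p = 0.621, adjusted p = 0.957). Its medians ran the other way, 6.18 points with the large kit and 4.72 with the small kit, where replicate 12 had -20.0. Cresyl violet stained libraries had 25.0% ± 10.1 (SD, n = 16) and unstained ones 28.3% ± 11.8 (n = 10). They differed by -3.27 points, with a permutation p of 0.467 (adjusted p = 0.867). The medians lay closer, 26.6% stained and 26.9% unstained, and unstained replicate 6, with 55.5%, weighs on the mean of its group. Libraries frozen early had 29.3% ± 14.9 (n = 12) and those frozen late 20.1% ± 15.9 (n = 11), and early minus late was 9.13 points with a permutation p of 0.168 (adjusted p = 0.53). The mean excess over the other autosomes went the other way, -1.45 points early and 2.17 late (permutation p = 0.472, adjusted p = 0.867). Its medians did not, with 0.976 points early and -2.13 late. Single libraries weigh on these means, with -30.2 points in replicate 9 frozen early and 22.3 in replicate 6 frozen late.

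Single windows were compared with Fisher's exact test over the whole genome. Between cresyl violet stained and unstained libraries, 0 of 59680 windows tested passed an adjusted p of 0.05, and so did 0 of the 2913 tested on chromosome 9. At an unadjusted p under 0.05 there were 121 on chromosome 9 (4.15%), against 2.61% of all windows tested. Of these 97 were positive less often in stained libraries, 3.33% against 2.25% of all windows. The lowest p belonged to chr9:18040001-18080000, which lacks protein-coding genes. Of 16 stained libraries 0 held it, and 6 of the 10 without stain did (Fisher's exact test, p = 0.000912, adjusted p = 1). The kinase gene Sik3 at chr9:45880001-45920000 was positive in 2 of 16 and 8 of 10 (Fisher's exact p = 0.00105, adjusted p = 1), and so was chr9:16720001-16760000. The fourth, chr9:16200001-16240000, was positive in 1 of 16 and 7 of 10.

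Between the full collection and all other libraries, 0 of 63543 windows passed after adjustment, and 0 of 3026 on chromosome 9. At an unadjusted p under 0.05 there were 119 on chromosome 9 (3.93%), below the 6.59% of all windows, and 112 of them were positive less often in the full collection (3.70%, against 6.06%). The lowest p belonged to chr9:16880001-16920000, with 1 of 54 libraries of the full collection and 41 of 195 others (Fisher's exact p = 0.000322, adjusted p = 0.463). It was followed by chr9:16760001-16800000 (3 of 54, 49 of 195), chr9:35880001-35920000 (2 of 54, 43 of 195) and chr9:98160001-98200000 in Nmnat3, an enzyme gene of NAD synthesis (2 of 54, 42 of 195). Of the 8 windows named in both comparisons, 5 lie within chr9:16200001-18080000. The comparisons share libraries, since the cresyl violet test is among the others in the second, and neighbouring windows share slices, so nothing is read from this.

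Linkage along the chromosome was measured inside each library, as the correlation of its track of positive windows with the same track shifted by a set distance. Over 238 libraries with at least 30 positive windows, the mean on chromosome 9 was 0.52 at 40 kb, 0.37 at 200 kb, 0.19 at 1 Mb, 0.12 at 2 Mb and 0.07 at 4 Mb. It was 0.015 at 10 Mb, 0.0071 at 20 Mb and -0.010 at 40 Mb. Among the 8 distances, the difference from the other autosomes in the same libraries was largest at 4 Mb, 0.0100 ± 0.0045 (SE, n = 238, sign-flip permutation p = 0.0271, adjusted p = 0.187), with 117 of 238 libraries above. At 200 kb it was 0.0087 ± 0.0048 (permutation p = 0.0734, adjusted p = 0.196) and at 40 Mb -0.0080 ± 0.0040 (237 libraries, permutation p = 0.0468, adjusted p = 0.187). No distance passed after adjustment. Chromosome 9 ranked second of 19 at 200 kb and 3 of 19 at 4 Mb, and 18 of 19 at 40 Mb.

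Normalized linkage D′, which compares how often a pair of windows is found in the same library with how often their separate frequencies would give, fell over the same distances. The mean was 0.63 ± 0.0089 (jackknife SE over libraries) at 40 kb, 0.48 ± 0.0088 at 200 kb, 0.32 ± 0.0090 at 1 Mb and 0.24 ± 0.0095 at 2 Mb. It was 0.19 ± 0.0100 at 4 Mb, 0.13 ± 0.0112 at 10 Mb, 0.13 ± 0.0113 at 20 Mb and 0.10 ± 0.0133 at 40 Mb. At each of the 8 distances the value lay within the range of the 18 other autosomes. At 40 Mb D′ was thus above 0 while the measure inside libraries was below it. In the full collection D′ was 0.66 ± 0.0228 at 40 kb and -0.0022 ± 0.0529 at 40 Mb, and in the other 10 experiments 0.63 ± 0.0097 and 0.10 ± 0.0152. D′ depends on how many libraries enter, so these sets of 54 and 195 libraries are not compared.

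**Figure D4:**
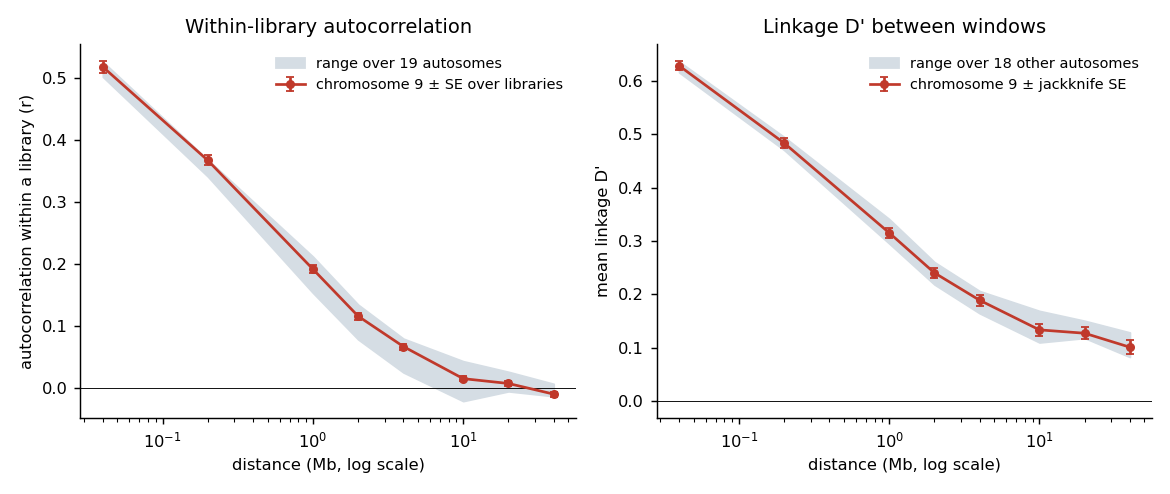
Mean correlation of a library's chromosome 9 track with itself at 8 distances (left, ± SE over libraries) and mean D′ between windows (right, ± jackknife SE), on a log distance axis. The grey range on the left covers all 19 autosomes, of which chromosome 9 (red) was neither lowest nor highest at any distance. On the right it covers the 18 others, and chromosome 9 lies inside it. Its values fall from 0.52 to -0.010 on the left and from 0.63 to 0.10 on the right.

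The share of positive windows with a positive neighbour averaged 80.4% ± 14.4 (SD, n = 238) on chromosome 9 and 79.3% on the other autosomes of the same libraries, a difference of 1.05 points ± 0.509 (SE), with 157 of 238 libraries above. This share rises with the sampled fraction, which chose the chromosome, so it is given with no test. Once the share that random placement would give at each chromosome's own sampled fraction was subtracted, the difference was -1.90 points ± 0.763, with 108 of 238 above. That version depends on the same fraction and is a description too. Among libraries with at least 100 positive windows the first difference was 0.305 points ± 0.496 (n = 232).

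At the scale of megabases, 121 bins of 1 Mb were compared by the correlation of their sampled shares over libraries, each value set against other pairs at the same distance. The sign of the first component of this map, after centring, was positive in 71 bins and negative in 50, oriented so that positive bins are richer in GC. It held 12.5% of the variance and the second component 9.01%. Positive bins had 43.9% ± 2.63 GC (SD over bins) and were positive in 56.3 libraries per window ± 6.50, and negative bins had 41.001% ± 2.64 and 50.3 ± 6.74. The component's r was 0.56 with GC, 0.40 with libraries per window and 0.19 with genes per window. GC set only the orientation of the component.

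The signs formed 28 blocks. The longest was negative and ran from the first window to 21 Mb. It covers 18 bins with 153 protein-coding genes, the Mmp cluster, Cntn5 and the first Olfr cluster. A second negative block from 36 to 43 Mb (7 bins, 144 genes) holds the second Olfr cluster and Hspa8, and another from 84 to 93 Mb (9 bins, 53 genes) holds Zic1 and the Plscr genes. All 129 Olfr genes and all 10 Mmp genes thus lay in negative blocks. The longest positive blocks were 53 to 65 Mb (12 bins, 155 genes), with Atm, the nicotinic receptor genes and Pkm2, and 114 to 124 Mb (10 bins, 107 genes), with Trim71, Eomes and Ctnnb1. Of the 11 stem cell genes 9 lay in positive blocks, with Dnmt1 and Zic1 in negative ones, and of the 16 housekeeping genes 14, with Hspa8 and Chek1 in negative ones. Of the 16 long neural genes 11 lay in positive blocks, among them Opcml, Ephb1, Clstn2 and Rora, and 5 in negative ones, although this list was detected less often than the other pair. Of all bins 58.7% were positive, and of 1263 protein-coding genes in the blocks 806 (63.8%) lay in positive ones.

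How far these blocks can be read was limited. In maps that each left out 1 experiment, between 90 and 121 of the 121 bins kept their sign, and 56 bins kept it in all 11 maps. Bins of 500 kb gave the same sign in 119. The full collection and the other 10 experiments, as separate maps, shared the sign in 69 of 121 bins, with an r of 0.29 between components. Over 7140 pairs of bins the r of their distance-normalised values was 0.067, against 0.35 before that step. Mean correlations of bins at 20 to 40 Mb were 0.24 between positive bins, 0.26 between negative bins and 0.21 for mixed pairs. At 40 to 80 Mb they were 0.21, 0.18 and 0.17. The blocks were drawn from this map, so these values describe it and are no test of it.

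**Figure D5:**
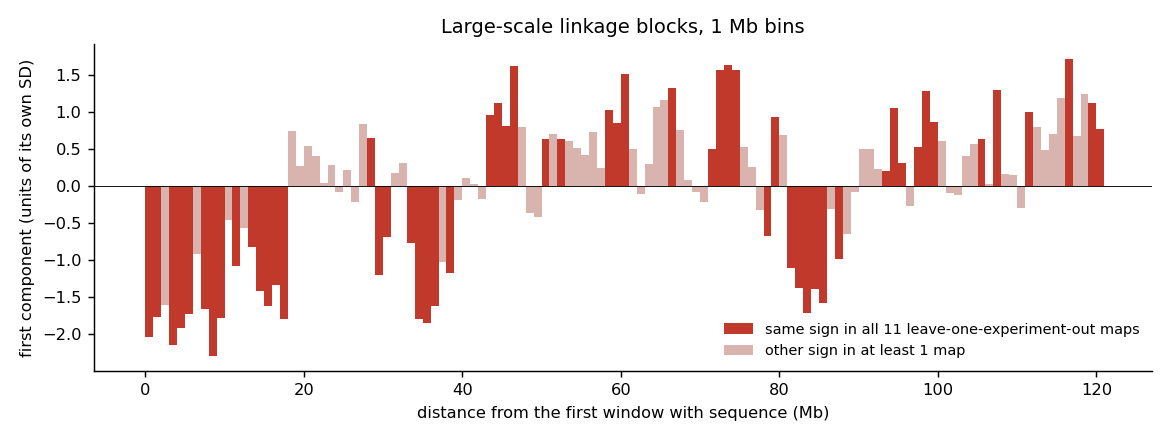
First component of the distance-normalised correlation map of chromosome 9 in 121 bins of 1 Mb, against the distance from the first window with sequence. Dark bars kept their sign in all 11 maps that left out 1 experiment (56 bins), and the long negative block at the start spans 18 Mb.

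Single pairs were named by the z-score of D′ within distance. Between 200 kb and 4 Mb the 3 strongest all involved a window seen in nearly every library, for example chr9:31320001-31360000, positive in 51 libraries, and the window at 35.08 Mb, positive in 245. All 51 libraries held both (D′ = 1, with 50.2 expected), so D′ carries little information there. Without windows positive in over 100 libraries, a choice made after these pairs were seen, the strongest pair was chr9:93760001-93800000 and chr9:95480001-95520000, 1.72 Mb apart and without protein-coding genes. They were positive in 42 and 79 libraries and together in 33, with 13.3 expected (D′ = 0.69 ± 0.0909, jackknife SE, against a mean of 0.26 at this distance). The second, chr9:8360001-8400000 with chr9:12240001-12280000, was found together in 23 libraries with 7.02 expected (D′ = 0.62 ± 0.100). The third, chr9:46920001-46960000 with chr9:47720001-47760000, was found together in 56 with 22.4 expected (D′ = 0.79 ± 0.0635). None of these windows holds a protein-coding gene. Without any 1 experiment the first pair kept a D′ of 0.66 to 0.71, the second 0.56 to 0.68 and the third 0.77 to 0.82. They are the extremes of many pairs, so their size is not an unbiased estimate.

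Of 6216 pairs of 1 Mb bins at least 10 Mb apart, the strongest was the first bin, 3 to 4 Mb, with 32 to 33 Mb, which holds Fli1 and Ets1, genes of ETS transcription factors. Its mean D′ was 0.22, against 0.10 for that distance (z = 3.05), and its z was 1.07 in the full collection and 2.79 in the other experiments. The second joined 30 to 31 Mb, with the protease gene Adamts8 and the matriptase gene St14, to 118 to 119 Mb, with Eomes (mean D′ 0.19, against 0.09, z = 3.04), and had a z of 0.25 in the full collection and 3.04 in the others. The third joined 3 to 4 Mb to 14 to 15 Mb (z = 3.02). Without the windows in over 100 libraries the pair with Eomes was first (z = 3.07), and neither pair with the first bin was among the strongest 3. Over all these pairs the z-scores of the full collection and of the other experiments correlated with an r of 0.09.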

How the data were processed

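The deposited table holds 0 or 1 for 68162 windows of 40 kb in 249 libraries. According to the methods, the authors aligned reads to mm9 with Bowtie2 (version 2.1 in the processing notes), removed duplicates with Samtools and called windows with GAMtools at a threshold of 4 reads, so a 0 is either absence or too few reads. These calls, whose deposited unit is a yes or no (other), carry no depth, and no interval for counting error is given. Libraries were grouped by their titles, and 0 columns were left unmapped.

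Computed here, with Python 3.11.15, numpy 2.4.6, scipy 1.17.1 and pandas 2.3.3, were shares of windows per library, permutation tests (exact where an arm had under 10 libraries, otherwise 100000 resamples, two-sided by absolute difference), Fisher's exact tests of windows positive in at least 3 libraries, within-library correlations, D′ over windows positive in at least 25 libraries with a jackknife that leaves out each library, and a correlation map of 1 Mb bins. Adjustment was by Benjamini-Hochberg, for windows over the whole genome. The map was centred after an uncentred component took 1 sign in all 121 bins, and windows positive in over 100 libraries were left out of it. Named windows were the 5 most and 5 least often positive, both ends and any never positive, and some of these windows and gene lists are not reported here. Named pairs had the highest z-score of D′ within distance. Genes were taken from GENCODE on the same assembly, and chromosome lengths were equal. The members and gene lists were chosen with earlier results of these data known. Scripts were tested on simulated data. Repeats were judged by words of 31 bases in chosen windows, since the reference carries no repeat mask.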

Additional observations from a re-analysis of the deposited data

Results flagged for a closer look

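A single library stood apart from its group. Replicate 6 of the unstained libraries in the cresyl violet test had 55.5% of chromosome 9 positive, while the next highest of the 10 had 33.96%, a gap of 0.489 times the range of the group. Of the other autosomes 34.9% was positive in it, which leaves 20.6 points of excess for chromosome 9. This was 1 of 18 combinations of group and measure that were looked at.
Chance alone sets a library apart in about 1 of 20 such groups.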

How the results depend on the processing

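Of 156 alternative values for the leading results, 139 were counted as unchanged. Where there was a test, this meant the same direction and side of the threshold. Counts and the block share could move by a set factor, and 25 of the values were arm counts that stayed at 0. D′ could move by its jackknife SE. The excess could move by its SD over libraries, 10.3 points, so positive values there had little scope to fail, and its median was counted without a check. The 139 is thus a description that was partly set in advance. The excess of chromosome 9 was -0.23 as a mean log2 ratio and 1.12 to 2.15 points otherwise. The difference between experiments had a p of 0.113 without the proteinase K and 0.0608 without the cresyl violet experiment. The neighbour share differed by 0.305 points with at least 100 positive windows. Normalised pointwise mutual information gave 0.592, 0.455, 0.298 and 0.228 at 40 kb, 200 kb, 1 Mb and 2 Mb. Without centring, a choice made after seeing the data, 100% of bins were positive. Partial correlations past the threshold numbered 0 without the reagent volume, freezing after incubation, full collection or cresyl violet experiment, and 1 without the propidium iodide, early freezing, PCR or SYBR Gold experiment. The difference in correlation within libraries turned at 1 Mb to -0.00232 with at least 100 positive windows, -0.00067 against chromosomes 10 to 14 and -0.00091 without the cresyl violet experiment, and at 2 Mb to -0.00072 with at least 100 positive windows and -0.00042 without the reagent volume experiment. The cause was not tested. Leaving out single libraries, 20 minus 25 PCR cycles ran from -35.1 to -29.1 points. No paired analysis was possible because the titles give no replicate numbers shared between groups. Depth is unknown, so a window without a call may be absent or too thinly read.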
